A study of Mus musculus with 23 samples.

Results

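The genes described here are 52 cell cycle and mitosis genes, taken by symbol from the gene annotation of the array without use of their expression values. Of these, 50 had a transcript cluster (the set of array probes that reads 1 gene) of their own among the 22180 genes that could be measured. They divide by role into 16 replication and S phase genes, 24 mitosis genes, 4 G1 cyclins and kinases, 3 transcription factors and 3 inhibitors of cyclin-dependent kinases. Ccnb1, which encodes cyclin B1, had no annotated transcript cluster, and Ccne2, which encodes cyclin E2, was annotated only to a cluster shared with Ints8, so both were left out. Rrm2 was the only member with 2 clusters, and the cluster with the higher mean over the sorted cells was used.

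Cells enter the cycle when D-type and E-type cyclins activate their kinases and release E2F factors, which switch on the genes of DNA replication. Later in the cycle FoxM1 and the MuvB complex switch on the mitosis genes, and p21 and the INK4 proteins hold the kinases back. Schwann cells (SCs), the glia that wrap peripheral axons, divide little once nerve development is complete, and loss of the Ras regulator Nf1 in them gives rise to neurofibroma, a benign nerve tumor that also holds macrophages.

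The arrays were Affymetrix Mouse Gene 2.0 ST arrays of RNA from SCs sorted as p75+ cells and from macrophages sorted as F4/80+;CD11b+ cells. SCs came from 1-month-old wild-type nerve and dorsal root ganglia (Nf1fl/fl mice without Cre, n = 3 arrays), 1-month-old mutant nerve (Nf1fl/fl;DhhCre, n = 3) and 7-month-old neurofibroma of Nf1fl/fl;DhhCre mice (n = 3). Macrophages came from the same 3 settings with 3, 5 and 4 arrays, and 2 further arrays held a universal batch control RNA. Every group has the same strain in the labels, C57BL/6 and BALB/c (mixed), where the methods name C57Bl/6 alone. The labels call the 1-month mutant samples neurofibroma. Tumors form later than that in this model, so these samples are called mutant nerve here. DhhCre acts in the SC lineage from embryonic life, the mutant p75+ cells are a mixture of cells with and without Nf1, and the sorted macrophages are wild type for Nf1. Tissue of 1-month mice was pooled from several mice per sort. The labels do not say which arrays came from separate animals, so p-values measure the spread between these arrays.

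Values are log2 signals as deposited. The 23 arrays lay on 2 levels, which followed age: the 1-month arrays and 1 universal control formed the first array set, and the 7-month arrays and the other universal control formed the second. Age and array set therefore cannot be told apart except through the universal control pair. Between the sets the universal control fell by 0.63 over all genes (median), with medians of -0.88 over the replication genes and -1.10 over the mitosis genes. In the second set arrays of a group often shared 1 value to the last deposited digit, in 23.5% of genes among the neurofibroma macrophages and in 11.8% among the neurofibroma SCs, against at most 0.239% in any 1-month group. This held for 15 and 6 of the 50 members, and the spread of those members is smaller for it. Among 12 macrophage markers, 11 were lower in SCs than in macrophages in each setting, and 8 to 9 of 10 SC markers were higher, with Ngfr, which encodes the p75 sort marker, not called at 1 month. The mean log2 signal of the macrophage markers was 4.25 to 5.17 in wild-type SCs, 4.35 to 4.66 in mutant SCs and 4.72 to 4.94 in neurofibroma SCs, against 9.07 to 9.50 in macrophages. That of the SC markers was 6.86 to 7.35 in 1-month SC arrays and 6.16 to 6.58 in neurofibroma SCs, against 3.49 to 5.63 in macrophages. Fibroblast markers (7 genes) were at 9.10 to 9.72 in 1-month SC arrays and 7.86 to 8.24 in neurofibroma SCs, and at 5.13 to 7.90 in 1-month macrophages and 4.36 to 4.43 in neurofibroma macrophages, with 6 to 7 of 7 called higher in SCs in each setting. Endothelial markers (5 genes) were at 5.96 to 7.88 in SC arrays and at 3.50 to 5.60 in macrophage arrays, with 4 to 5 of 5 called higher in SCs. Neuron markers (6 genes) were at 4.77 to 6.26 in 1-month SC arrays, 3.42 to 4.04 in neurofibroma SCs and 2.42 to 4.93 in macrophages. Of these, 2 to 5 of 6 were called higher in SCs. The part of these markers in the differences below was not tested. In bulk RNA, fewer cycling cells and less of a transcript per cell cannot be told apart.

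The promoters of the members were read because mitosis genes and replication genes are known to be switched on through different DNA elements. RefSeq start-site windows (GRCm38.p6, 250 bases before to 50 bases after the start, 1 window per gene) were matched for 39 members. A CHR element (TTTGAA on either strand), the site of the MuvB complex, stood in 14 of 19 mitosis windows (73.7%) and in 2 of 13 replication windows (15.4%), against 18.2% of all 27025 windows. An E2F site (TTTCGCGC, TTTGGCGC or TTTCCCGC on either strand, matches allowed to overlap) stood in 6 of 13 replication windows (46.2%) and in 1 of 19 mitosis windows (5.26%), against 1.91% of all windows. A CCAAT box (CCAAT on either strand) stood in 16 mitosis windows (84.2%) and in 10 replication windows (76.9%), against 38% of all windows. These matches describe letters and not bound sites. The 250 bases before the start are shown for 6 members as examples. Others rich in matches, such as Top2a (2 CHR elements, 6 CCAAT boxes), are left out. The bases are printed 5′ to 3′ on the gene's strand with CHR elements, E2F sites and CCAAT boxes in capitals. The mitosis genes are Cdk1 (chr10:69352913-69353162, minus strand), Cenpa (chr5:30666636-30666885, plus strand) and Prc1 (chr7:80294201-80294450, plus strand), and the replication genes are Mcm7 (chr5:138171884-138172133, minus strand), Rrm1 (chr7:102441445-102441694, plus strand) and Mcm6 (chr1:128359706-128359955, minus strand).
Cdk1: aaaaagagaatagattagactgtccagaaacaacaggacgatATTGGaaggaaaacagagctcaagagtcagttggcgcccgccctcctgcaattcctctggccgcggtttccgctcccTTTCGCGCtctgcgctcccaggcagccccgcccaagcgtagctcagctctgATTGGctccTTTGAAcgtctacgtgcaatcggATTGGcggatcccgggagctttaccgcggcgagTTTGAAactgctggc
Cenpa: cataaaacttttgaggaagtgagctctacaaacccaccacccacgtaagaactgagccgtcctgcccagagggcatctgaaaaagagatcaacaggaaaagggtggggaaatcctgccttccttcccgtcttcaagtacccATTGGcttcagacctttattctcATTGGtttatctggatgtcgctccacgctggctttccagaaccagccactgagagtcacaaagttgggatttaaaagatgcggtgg
Prc1: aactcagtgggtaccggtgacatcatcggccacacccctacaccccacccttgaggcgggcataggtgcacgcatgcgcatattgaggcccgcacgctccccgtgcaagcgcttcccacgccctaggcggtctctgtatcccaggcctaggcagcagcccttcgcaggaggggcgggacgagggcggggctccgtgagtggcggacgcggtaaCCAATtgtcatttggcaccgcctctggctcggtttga
Mcm7: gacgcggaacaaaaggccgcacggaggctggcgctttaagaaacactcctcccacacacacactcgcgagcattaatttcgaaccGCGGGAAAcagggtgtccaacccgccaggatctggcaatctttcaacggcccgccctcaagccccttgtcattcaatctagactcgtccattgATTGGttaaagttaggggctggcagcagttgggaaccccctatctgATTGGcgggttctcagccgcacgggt
Rrm1: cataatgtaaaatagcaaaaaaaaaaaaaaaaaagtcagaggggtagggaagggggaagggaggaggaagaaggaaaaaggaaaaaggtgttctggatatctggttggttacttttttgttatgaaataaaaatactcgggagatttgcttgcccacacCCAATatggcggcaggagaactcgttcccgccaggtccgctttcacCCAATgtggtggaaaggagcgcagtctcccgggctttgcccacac
Mcm6: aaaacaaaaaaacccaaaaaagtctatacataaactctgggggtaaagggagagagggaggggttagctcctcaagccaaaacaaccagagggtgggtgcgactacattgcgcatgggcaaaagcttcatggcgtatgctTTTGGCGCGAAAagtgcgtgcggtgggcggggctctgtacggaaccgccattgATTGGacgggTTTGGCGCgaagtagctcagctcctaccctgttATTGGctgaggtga
Cdk1 carried all 3 elements, with CHR elements beginning 71 and 15 bases before the start and an E2F site beginning 131 bases before it. The single CHR element of Prc1 spanned the start, and that of Cenpa lay after it, outside the printed bases. Each start is the one farthest upstream in the RefSeq window table, but the RefSeq gene spans of Mcm7, Cenpa and Prc1 reach farther and take in 228, 9 and 6 of the printed bases. In Mcm6, E2F sites on opposite strands overlapped in 1 run of capitals.

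The first comparison asked whether loss of Nf1 in SCs changed the members before tumors formed. No member was called in SCs of mutant against wild-type nerve at 1 month, at an adjusted p under 0.05 (limma) and a fold change above 2. Calls made up 0.00451% of all genes in this comparison. The median difference was 0.06 (log2) over the 50 members, -0.01 over the replication genes and 0.13 over the mitosis genes, against -0.02 over all genes, and 20 of 24 mitosis genes had a value above 0. At an unadjusted p under 0.05 there were 4 members of 50 (8%), against 8.66% of all genes. The plot of mutant minus wild-type values shows the interval of each member.

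**Figure D1:**
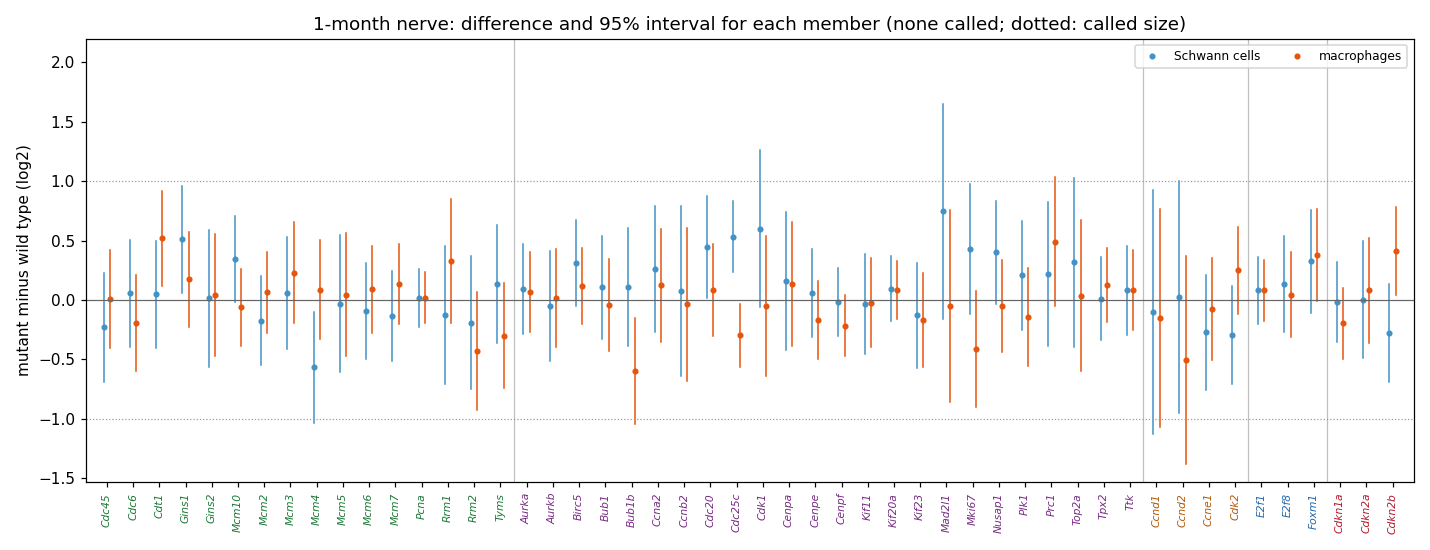
Difference between mutant and wild-type nerve at 1 month for each of the 50 members, in log2 units, for SCs (blue) and macrophages (orange), with 95% intervals of the limma fit. Members are grouped by role, gene names share the color of their class, and dotted lines mark a fold change of 2. No member was called in either cell type.

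Several mitosis genes differed more among the mutant SC arrays than between the group means. Mki67, which encodes the proliferation antigen Ki-67, was at 4.40, 4.49 and 4.72 (log2 signal) in wild-type SCs and at 4.22, 5.55 and 5.14 in mutant SCs. Top2a, the topoisomerase that untangles sister chromatids, was at 4.31, 4.97 and 4.44 in wild-type and at 3.75, 5.59 and 5.33 in mutant SCs. Mad2l1, a spindle checkpoint protein, was at 4.60, 4.64 and 5.19 in wild-type and at 4.40, 5.42 and 6.84 in mutant SCs. For each of these genes mutant replicate 8 lay below every wild-type array, replicates 9 and 10 lay above every wild-type array, and the groups overlapped. The mean of the 24 mitosis genes, set against the median of all genes in the same array, was -0.17 in replicate 8, 0.55 in replicate 9 and 0.28 in replicate 10, with wild-type arrays at -0.12, 0.10 and 0.20. In replicates 8, 9 and 10 endothelial markers were at 5.96, 7.42 and 6.42, and T cell markers (5 genes) at 3.38, 4.44 and 2.82. Wild-type SCs had endothelial markers at 6.67 to 7.40 and T cell markers at 3.03 to 3.55. Neuron markers were at 4.91, 5.59 and 6.26 in the mutant replicates, against 4.77, 5.34 and 6.00 in wild-type SCs. SC markers were at 7.29, 6.86 and 7.00, against 7.35, 7.11 and 7.08. Fibroblast markers were at 9.10, 9.57 and 9.50, against 9.72, 9.56 and 9.22. Macrophage markers were at 4.35, 4.64 and 4.66, against 4.25, 4.62 and 5.17. The part of these markers in the split was not tested. Replicates 8 and 9 belong to batch 2 of the labels and replicate 10 to batch 1, so the split did not follow the label batch. Within batch 1 (1 array on each side) and batch 2 (2 on each side) Mki67 differed by 0.74 and 0.27. Top2a differed by 1.02 and -0.04, and Mad2l1 by 2.24 and -0.0007. The mean log2 signal of the 24 mitosis genes differed by 0.43 and 0.10. In batch 2 this mean was 4.00 and 4.65 in mutant replicates 8 and 9, so the smaller difference there averages over the split. In batch 1 it was 4.38 in mutant replicate 10 and 3.95 in wild-type replicate 1, the lowest wild-type SC array.

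Cdc25c, the phosphatase that activates Cdk1 at the start of mitosis, had the smallest adjusted p of the members in this comparison. It was at 2.32, 2.50 and 2.54 in wild-type and at 3.07, 3.11 and 2.78 in mutant SCs, without overlap. The difference of 0.53 (95% interval 0.24 to 0.83) had an adjusted p of 0.318, and it was 0.47 within label batch 1 and 0.57 within batch 2. Mcm4, a subunit of the helicase that opens replication origins, was at 6.46, 6.42 and 5.92 in wild-type and at 6.07, 5.46 and 5.58 in mutant SCs, and these overlapped, with a difference of -0.57 (-1.03 to -0.10) and an adjusted p of 0.501. Cdk1, the kinase that drives mitosis, was at 4.74, 5.13 and 5.28 in wild-type and at 5.29, 6.21 and 5.45 in mutant SCs, without overlap, and differed by 0.60 (-0.06 to 1.26, adjusted p = 0.621). How many of all genes separated without overlap was not counted, here or in the comparisons below.

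In macrophages, mutant and wild-type nerve at 1 month did not yield a called member either, and called genes were 0% of all genes. All mutant macrophage arrays belong to batch 1 of the labels and all wild-type ones to batch 2, so that genotype and label batch cannot be told apart here. The median difference was 0.04 over the members and -0.02 over all genes. Here 4 members (8%) had an unadjusted p under 0.05, against 12.4% of all genes. Bub1b, a kinase of the spindle checkpoint, had the smallest adjusted p of 0.268 at -0.60 (-1.05 to -0.15). Cdt1, which loads the Mcm helicase onto origins, was at 5.94, 5.03 and 5.47 in wild-type and at 6.18, 6.29, 5.90, 5.80 and 5.85 in mutant nerve, and these groups overlapped. Cdkn2b, which encodes the kinase inhibitor p15, was at 5.31, 6.08 and 6.04 in wild-type and at 6.17, 5.99, 6.30, 6.11 and 6.53 in mutant macrophages, overlapping, with an adjusted p of 0.357.

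The second question was whether SCs and macrophages of the same nerve differed in these genes. Such comparisons lie within 1 array set and do not depend on the universal control. In wild-type nerve 4 members were higher in SCs (8% of 50, against 8.87% of all genes called higher) and none was lower (against 4.99% of all genes). The called members were Mcm4, Mcm7, Rrm1 and Prc1, 3 of them replication genes. At an unadjusted p under 0.05 there were 16 members (32%), against 39.7% of all genes.

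Mcm4 (chr16:15623897-15637400) was at 6.46, 6.42 and 5.92 in wild-type SCs and at 5.19, 4.79 and 4.44 in wild-type macrophages. All SC arrays lay above all macrophage arrays, and the difference was 1.46 (SE 0.22, adjusted p = 3.79e-05, limma). Mcm7 (chr5:138164583-138172111), another subunit of the same helicase, was at 4.93, 5.21 and 5.55 in SCs and at 4.19, 4.27 and 4.19 in macrophages. Its difference was 1.02 (SE 0.18, adjusted p = 0.000205), again without overlap. The remaining members of the Mcm family, Mcm2, Mcm3, Mcm5, Mcm6 and Mcm10, had differences of -0.05, -0.48, 0.18, 0.34 and -0.40, none of which passed the adjusted threshold.

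Rrm1 (chr7:102441695-102469771), the large subunit of the ribonucleotide reductase that makes deoxynucleotides, was at 5.79, 6.02 and 5.26 in SCs and at 5.01, 4.25 and 4.43 in macrophages of wild-type nerve. The difference was 1.13 (SE 0.28, adjusted p = 0.00402), and the arrays did not overlap. Rrm2, the small subunit of that enzyme, was at 5.56, 4.77 and 4.62 in SCs and at 4.20, 4.23 and 4.73 in macrophages, and these overlapped (0.60, adjusted p = 0.0997). Prc1 (chr7:80294445-80316259), which bundles microtubules of the spindle midzone, was at 4.44, 4.64 and 5.69 in SCs and at 3.88, 3.74 and 3.91 in macrophages. The difference was 1.08 (SE 0.29, adjusted p = 0.0077), with SC replicate 3 more than 1 log2 unit above the other SC arrays.

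The call of Mcm4 held without any single array (1.28 to 1.66), whereas the other 3 depended on single arrays. Without SC replicate 3 Mcm7 was at 0.86 (fold under 2) and Prc1 at 0.70 with an adjusted p of 0.0632, and without SC replicate 2 or macrophage replicate 5 Rrm1 was at 0.96 and 0.97. Over SC replicates 1 to 3 neuron markers were at 4.77, 5.34 and 6.00, and endothelial markers at 6.67, 6.77 and 7.40. Macrophage markers were at 4.25, 4.62 and 5.17, also highest in replicate 3. SC markers (7.35, 7.11 and 7.08) and fibroblast markers (9.72, 9.56 and 9.22) were lowest there. The part of these markers in the calls was not tested. Transcripts of seminal vesicle were present in SC replicates 2 and 3 and macrophage replicates 5 and 6 of wild-type nerve. Without these arrays 1 array was left on each side, assumed to vary like the others, and Mcm4 stayed called while Mcm7 (0.74), Rrm1 (0.78) and Prc1 (0.56) did not.

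Of the members lower in wild-type SCs, Pcna had the smallest adjusted p, but its fold change was just under 2. Pcna, the sliding clamp of DNA polymerase, was at 9.22, 9.32 and 9.09 in SCs and at 10.20, 10.09 and 10.08 in macrophages (difference -0.91, SE 0.12, adjusted p = 3.98e-06). In mutant nerve it was at 9.24, 9.24 and 9.19 against 10.18, 10.15, 10.30, 10.10 and 9.99, a difference of -0.92 (adjusted p = 8.4e-07), and in neurofibroma at 8.64, 8.93 and 8.79 against 9.18, 9.35, 9.34 and 9.20, a difference of -0.48 (adjusted p = 0.00185). In each setting every SC array lay below every macrophage array.

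In mutant nerve the calls were Ccnd2, higher in SCs (2% of members, against 7.22% of all genes called higher), and Cdt1, lower in SCs (2%, against 5.73% called lower). Cdt1 was at 4.77, 5.20 and 4.78 in mutant SCs and at 6.18, 6.29, 5.90, 5.80 and 5.85 in mutant macrophages, without overlap. The difference was -1.08 (SE 0.19, adjusted p = 0.00017), and against the 5 macrophage arrays SC replicate 10, the only mutant SC array of the same label batch, gave -1.22. Ccnd2, which encodes cyclin D2 of the G1 phase, was at 6.66, 7.39 and 7.59 in SCs and at 5.54, 4.99, 5.09, 6.77 and 7.09 in macrophages. The groups overlapped, since macrophage replicates 14 and 15 lay above SC replicate 8, and the difference of 1.32 (SE 0.42) had an adjusted p of 0.0224. Leaving out SC replicate 9 or 10 or macrophage replicate 12 or 13 moved that p to between 0.0593 and 0.107, and with the label batch as a term it was 0.07. Over macrophage replicates 11 to 15 the endothelial markers were at 4.37, 3.69, 3.80, 5.60 and 5.57, highest in replicates 14 and 15 like Ccnd2, and the SC, fibroblast and neuron markers were highest there too. Their part in the Ccnd2 difference was not tested.

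Mcm4, Mcm7 and Rrm1 also lay higher in every mutant SC array than in every mutant macrophage array, but at 0.81 (adjusted p = 0.00377), 0.75 (0.00129) and 0.67 (0.0502) they stayed under a fold of 2. Without SC replicate 8, 5 members were called, with Top2a, Mad2l1 and Prc1 joining Ccnd2 and Cdt1. The share of all genes called in that fit is not given here, so the count is not read as a result about the members. Over the 50 members the median difference was 0.14 in mutant nerve, with 20 of 24 mitosis genes above 0, and -0.02 in wild-type nerve, with 10 of 24, beside medians over all genes of 0.00 and -0.06.

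In neurofibroma the calls were both lower in SCs, Cdt1 and Cenpa (4% of members, against 5.88% of all genes called lower), and no member was called higher (against 6.46%). Cenpa (chr5:30666877-30674837), the histone variant that marks centromeres, was at 4.44, 4.09 and 3.69 in SCs and at 6.13, 5.54, 5.96 and 5.34 in macrophages. The difference was -1.66 (SE 0.26, adjusted p = 4.15e-05), and no array overlapped. Cenpa was also lower in SCs of wild-type nerve, at 4.65, 5.24 and 4.90 against 5.35, 6.02 and 6.38 (-0.98, adjusted p = 0.0108), and of mutant nerve, at 4.86, 5.41 and 4.99 against 5.94, 5.81, 6.30, 5.68 and 6.52 (-0.96, adjusted p = 0.0057), in both just under a fold of 2.

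Cdt1 was at 3.64, 3.91 and 4.03 in neurofibroma SCs and at 4.55, 4.91, 5.24 and 4.98 in neurofibroma macrophages, a difference of -1.06 (SE 0.20, adjusted p = 0.00035) with no overlap. Without array s4481 of either cell type the difference was -0.95 and the fold under 2. Mcm7 was at 4.56, 5.25 and 4.88 in SCs and at 4.11, 4.10, 4.18 and 4.29 in macrophages (0.73, adjusted p = 0.00263), so it lay higher in SCs without overlap in all 3 settings, as Cdt1, Cenpa and Pcna lay lower.

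**Figure D2:**
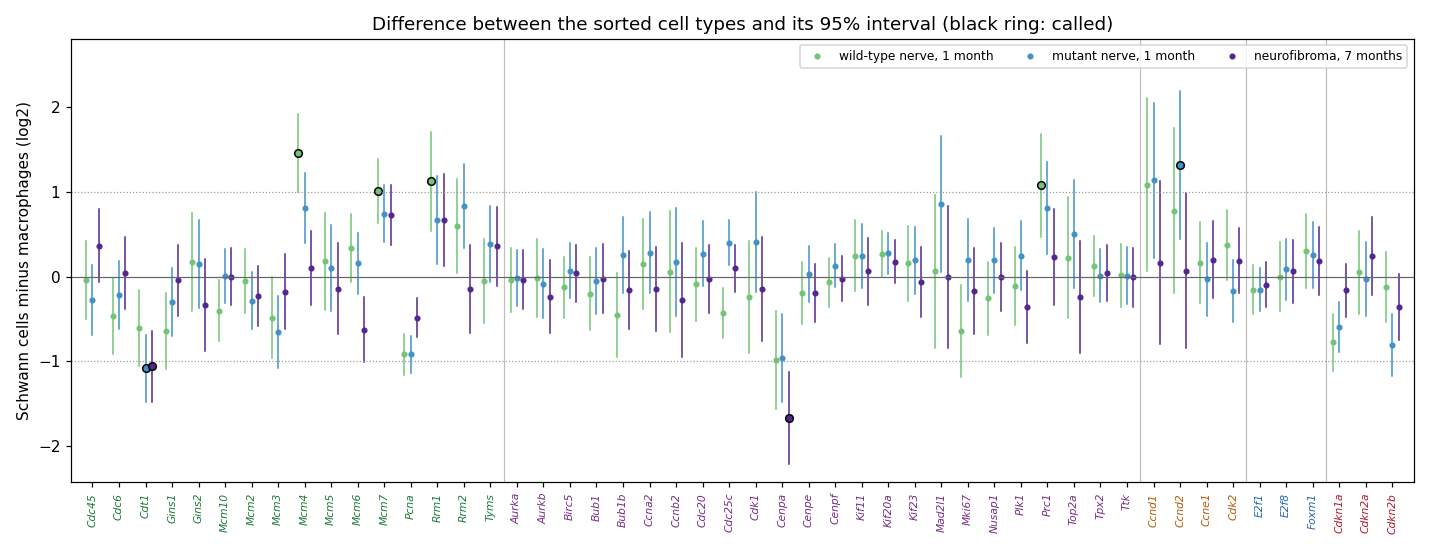
SC minus macrophage difference of each member in log2 units with its 95% interval, in wild-type nerve (green), mutant nerve (blue) and neurofibroma (purple). Rings mark the called values, Mcm4, Mcm7, Rrm1 and Prc1 in wild-type nerve, Ccnd2 and Cdt1 in mutant nerve, and Cdt1 and Cenpa in neurofibroma, and dotted lines mark a fold change of 2.

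Among the inhibitors, Cdkn1a, which encodes p21, was at 10.02, 10.36 and 10.80 in wild-type SCs and at 11.25, 11.16 and 11.10 in wild-type macrophages, without overlap (-0.77, adjusted p = 0.000903). In mutant nerve it was at 10.29, 10.40 and 10.44 against 11.05, 10.98, 10.88, 10.98 and 10.97 (-0.60, adjusted p = 0.00313). In neurofibroma it was at 10.38, 10.83 and 10.43 against 10.90, 10.64, 10.70 and 10.59, the arrays overlapped, and the difference was -0.16. Cdkn2b was lower in mutant SCs, at 5.19, 5.76 and 5.29 against 5.99 to 6.53 in the macrophages (-0.81, adjusted p = 0.00145), within a fold of 2. Cdkn2a, which encodes p16 and p19, lay between 3.92 and 5.11 over the sorted arrays of all groups and passed the threshold in none of the 3 comparisons.

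The other genes of the pathway were counted from a list of 132 measured genes in 4 groups. In wild-type nerve 0 of 33 further S phase genes were higher in SCs and 2 were lower, 2 of 57 further G2 and M genes were higher and 2 were lower, and 7 of 27 further cyclins, kinases, inhibitors and pocket proteins were higher and none was lower. Among 15 targets of p53, 4 were higher and 1 was lower. Of all genes 8.87% were higher and 4.99% lower in this comparison. Anln, which encodes anillin of the contractile ring, differed by 1.77 (adjusted p = 2.7e-06), and Nasp, a histone chaperone, by -1.11 (adjusted p = 0.000333). Cdkn2d, which encodes an INK4 inhibitor, differed by 1.51 (adjusted p = 7.47e-05), Cdkn1b, which encodes p27, by 1.10 (adjusted p = 2.19e-05), and Mdm2, the p53 ubiquitin ligase, by -2.13 (adjusted p = 1.85e-08). In mutant nerve the 3 cell cycle groups had 0, 2 and 2 genes higher and 1, 2 and 0 lower, and in neurofibroma 0, 0 and 2 higher and 2, 4 and 1 lower. The p53 targets had 3 higher and 2 lower in mutant nerve, where 7.22% and 5.73% of all genes were called, and 4 higher and 1 lower in neurofibroma, where 6.46% and 5.88% were. Wee1, the kinase that holds Cdk1 inactive, was higher in SCs in every setting (1.06, 1.05 and 1.65 in wild-type nerve, mutant nerve and neurofibroma). Cks2, a small subunit of Cdk complexes, was lower in SCs of mutant nerve (-1.85, adjusted p = 0.0133) and neurofibroma (-2.63, adjusted p = 0.0013). None of the 132 genes was called between genotypes at 1 month or, net of the universal control, between ages.

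**Figure D3:**
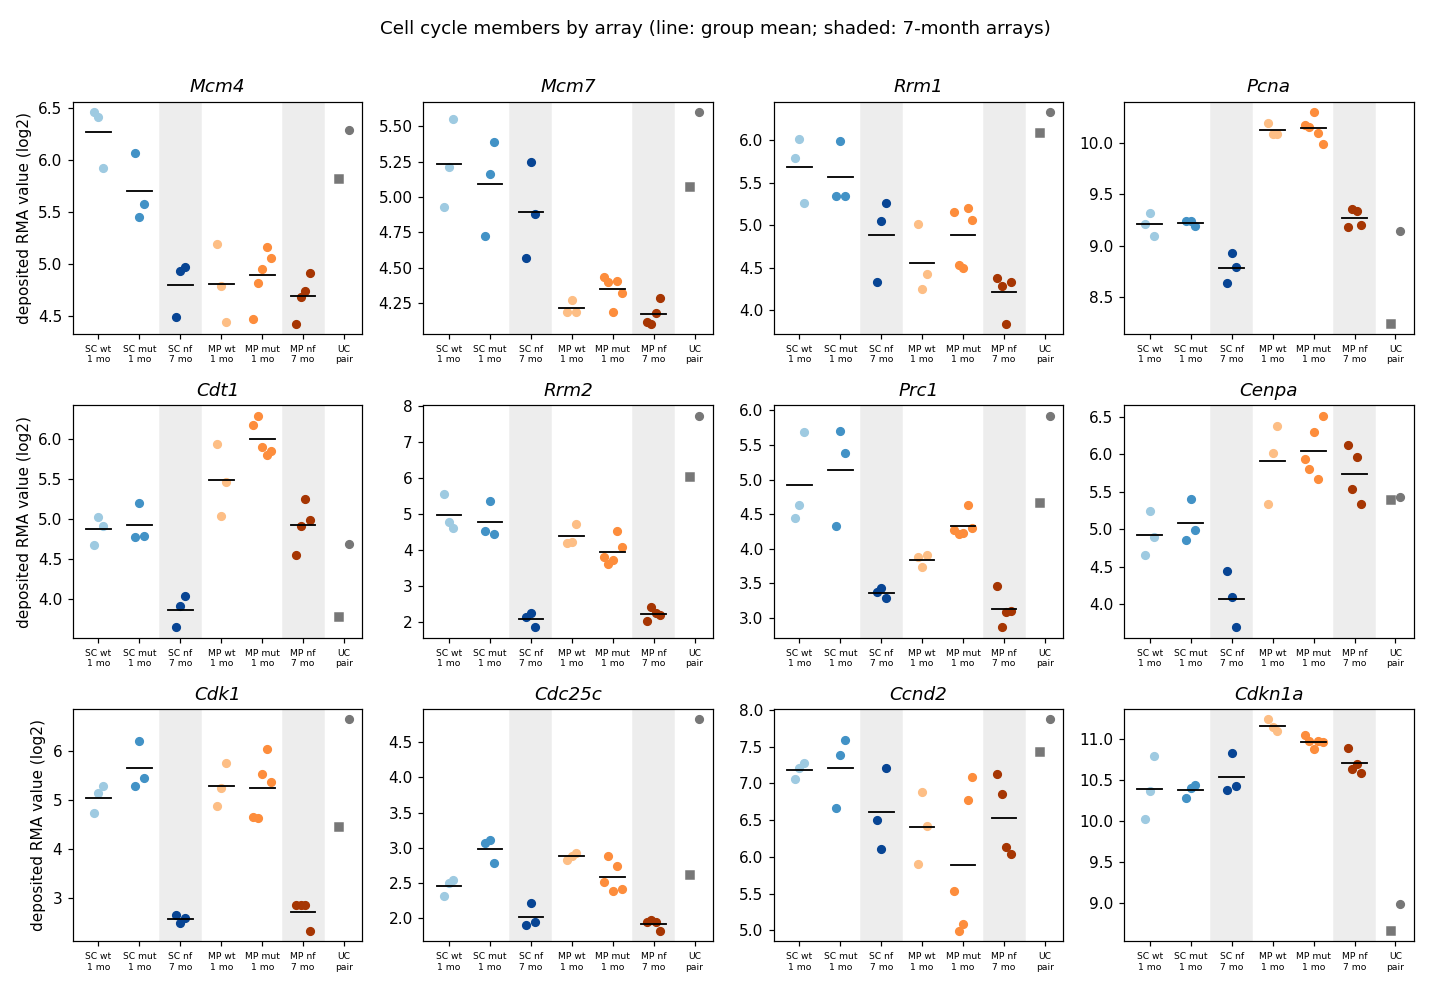
Deposited log2 signal of 12 members in every array, with a line at each group mean and 7-month arrays on a shaded ground (SC, Schwann cells; MP, macrophages; wt, wild-type nerve; mut, mutant nerve; nf, neurofibroma; UC, universal control, square for the 7-month set and circle for the 1-month set). Mcm4, Mcm7 and Rrm1 stand higher in 1-month SCs than in 1-month macrophages, Pcna, Cdt1 and Cenpa stand lower, and Cdk1, Rrm2 and Cdc25c drop in the 7-month arrays of both cell types and in the universal control.

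The third question was how the members differed between 7-month neurofibroma and 1-month nerve. Each such difference was taken net of the universal control pair, whose own error enters the standard errors, with a median standard error over the members of 0.43 in SCs, where the SC genotype comparison had 0.21. In SCs no member was called against mutant nerve (calls were 0.23% of all genes), and Cdc25c was called against wild-type nerve (0.311%). In macrophages Cdc25c was called against mutant nerve (0.225%), and no member against wild-type nerve (0.207%). The numbers of members at an unadjusted p under 0.05 were 6, 8, 3 and 3 of 50 in this order (12%, 16%, 6% and 6%), against 8.76%, 9.87%, 8.37% and 9.90% of all genes. The wild-type and mutant comparisons share the neurofibroma arrays.

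The size of the Cdc25c difference came from the universal control, and its sign depended on how the array sets were brought together. Cdc25c was at 1.91, 2.21 and 1.94 in neurofibroma SCs and at 2.32, 2.50 and 2.54 in wild-type SCs, lower in every array, while the universal control went from 4.82 in the first set to 2.61 in the second. Net of that change the difference was 1.78 (SE 0.28, adjusted p = 0.00516). In macrophages it was at 1.94, 1.97, 1.94 and 1.82 in neurofibroma and at 2.51, 2.89, 2.38, 2.74 and 2.41 in mutant nerve, again lower in every array, and 1.55 (SE 0.27, adjusted p = 0.0146) net of the control. With arrays centered on their medians instead, these differences were 0.38 and 0.18, and after quantile normalization the macrophage value was -0.11. Signals of Cdc25c were near the bottom of each array, at a median percentile of 14.5 to 25.3 of all genes in the sorted groups, and a filter on low values removed it. A fit without the 5 arrays that carry seminal vesicle transcripts, the 4 wild-type arrays named above and neurofibroma SC array s4992, left the macrophage value at 1.55, since neither compared group holds such an array, with an adjusted p of 0.0534.

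Birc5, which encodes survivin of the chromosomal passenger complex, was at 2.51, 2.58 and 2.59 in neurofibroma SCs and at 4.21, 4.79 and 4.44 in mutant SCs, and at 2.39, 2.58, 2.59 and 2.51 in neurofibroma macrophages and 4.22, 4.40, 4.23, 4.53 and 4.68 in mutant macrophages. The universal control changed by -0.48. Net of it Birc5 differed by -1.45 in SCs (95% interval -2.16 to -0.73, adjusted p = 0.0946) and by -1.42 in macrophages (-2.11 to -0.73, adjusted p = 0.0865), which missed the threshold. Removing the set difference with ComBat, which leaves the error of the control pair out, gave -1.44 (adjusted p = 0.00101) and -1.42 (adjusted p = 7.48e-06), both called, and centering gave -1.07 and -1.05, both called. Every neurofibroma array lay below every mutant array of its cell type.

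Cdk1 had the widest range of group means of the mitosis genes. It was at 2.64, 2.47 and 2.59 in neurofibroma SCs and at 5.29, 6.21 and 5.45 in mutant SCs, and the universal control changed from 6.65 to 4.45. In macrophages it was at 2.84, 2.84, 2.84 and 2.32 in neurofibroma and at 4.65, 4.62, 5.53, 6.05 and 5.37 in mutant nerve. Net of the control the differences were -0.88 in SCs and -0.33 in macrophages, and neither passed, whereas centering gave -2.23 and -1.69, both called. Rrm2, the replication gene with the widest range, was at 2.15, 2.25 and 1.86 in neurofibroma SCs and at 4.54, 5.37 and 4.46 in mutant SCs, the control went from 7.73 to 6.02. The difference was -0.99 (adjusted p = 0.64) net of the control and -1.85 (called) with centering. Mad2l1 was at 3.00, 3.04 and 3.17 in neurofibroma SCs, below every mutant SC array, and at 3.19, 3.11, 2.86 and 3.12 in neurofibroma macrophages, and the control went from 5.86 to 4.60.

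**Figure D4:**
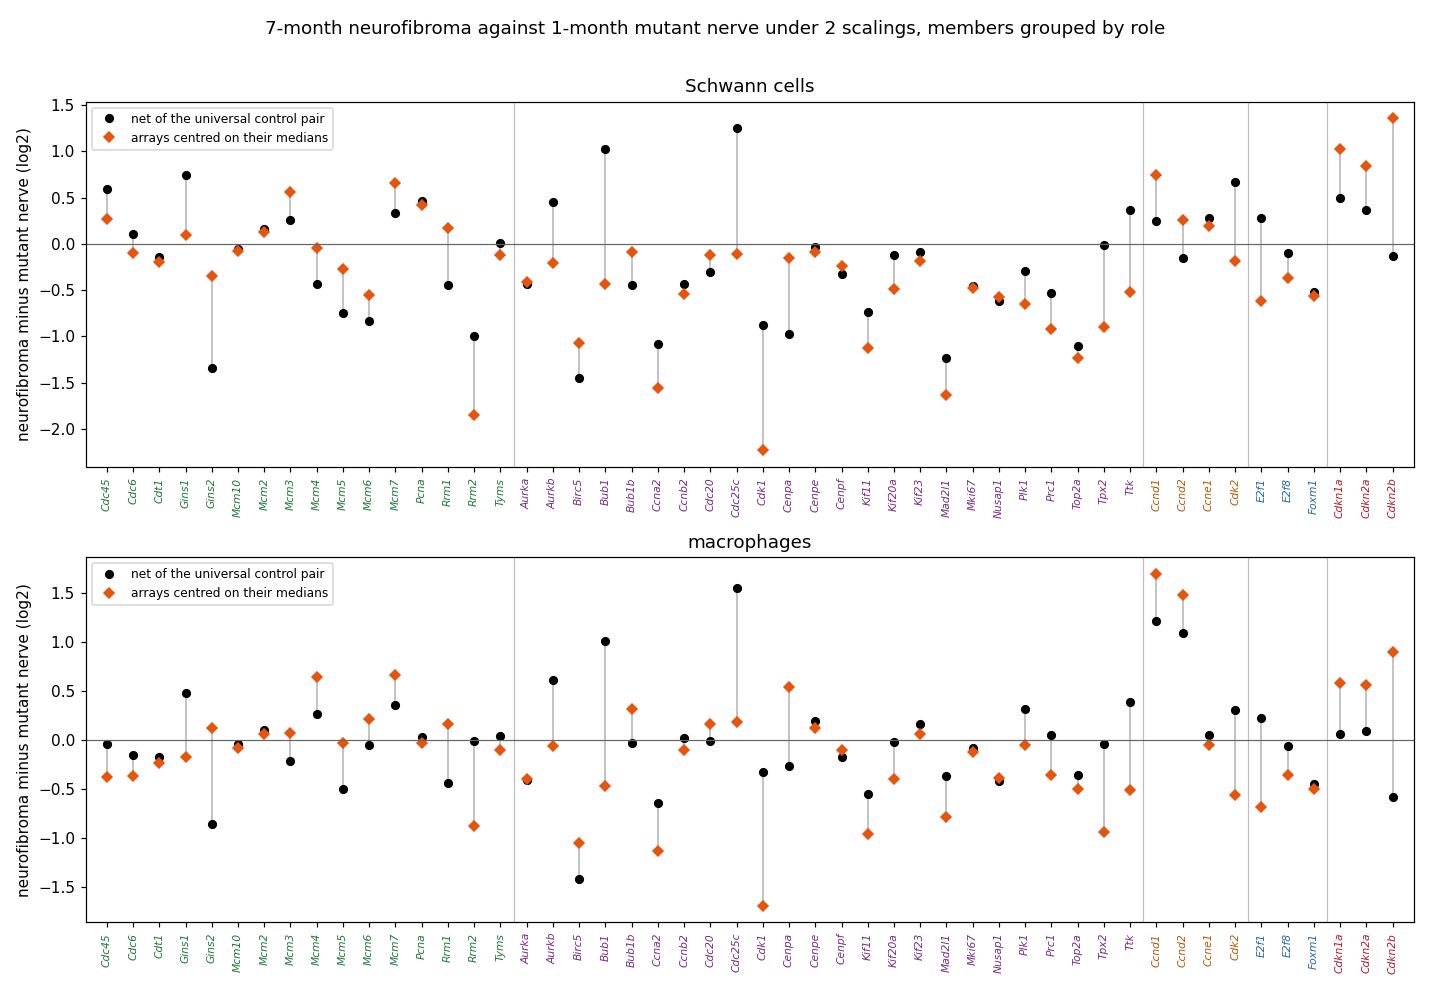
Neurofibroma minus mutant nerve difference of each member in log2 units, for SCs (top) and macrophages (bottom), net of the universal control pair (black circles) or with arrays centered on their medians (orange diamonds). Between the markers Cdk1 in SCs moves from -0.88 to -2.23, Cdc25c from 1.25 to -0.11 and Cdkn2b from -0.13 to 1.36.

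The median of the mitosis genes lay below that of the replication genes in SCs on either scale. Against mutant nerve the median in SCs was -0.43 over the mitosis genes and -0.02 over the replication genes net of the control, beside -0.04 over all genes. With centering these were -0.50 and -0.06, beside 0.20 over all genes. In macrophages the medians were -0.04 and -0.04 net of the control (all genes -0.04), and -0.38 and -0.03 with centering (all genes 0.18). With centering 6 of 24 mitosis genes were called lower in SCs (Top2a, Birc5, Ccna2, Cdk1, Mad2l1 and Kif11) and 3 in macrophages (Birc5, Ccna2 and Cdk1), and none was called higher. On that scale 2.64% of all genes were called lower and 3.24% higher in SCs, and 1.61% lower and 2.88% higher in macrophages. After ComBat 4 members were called lower and 1 higher in SCs against mutant nerve, where 5.63% of all genes were called, and the calls among all genes were 6.47% for SCs against wild-type nerve, 4.95% for macrophages against mutant nerve and 6.22% for macrophages against wild-type nerve.

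Within each array, the mitosis genes took a lower place in the 7-month set, and the universal control did so as well. Their mean relative to the median of all genes was 0.06 ± 0.16 (SD, n = 3) in wild-type SCs, 0.22 ± 0.36 (n = 3) in mutant SCs and -0.35 ± 0.05 (n = 3) in neurofibroma SCs. In macrophages it was 0.12 ± 0.13 (n = 3), 0.16 ± 0.13 (n = 5) and -0.15 ± 0.07 (n = 4) in the same order, and the universal control had 1.32 in the first set and 0.97 in the second. The replication genes stayed between 0.62 and 1.05 in every sorted array, with the universal control at 1.34 and 1.37. The distance between both class means therefore changed by -0.59 in SCs and -0.34 in macrophages from mutant nerve to neurofibroma, by -0.38 in the universal control, and net of it by -0.21 and 0.04. From wild-type nerve to neurofibroma the change was -0.35 in SCs and -0.42 in macrophages, and net of the control 0.03 and -0.04. With 1 control array in each set these net values have no replicate error. The fall of the universal control also differed by signal level. Its median was -0.43, -0.79 and -0.69 over genes with a low, middle and high signal in it. The mitosis genes had a median percentile of 71.1 and 65.2 in the 2 control arrays, and of 38 to 59.6 in sorted arrays. Whether the net values hold at the level of the sorted cells was not tested.

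**Figure D5:**
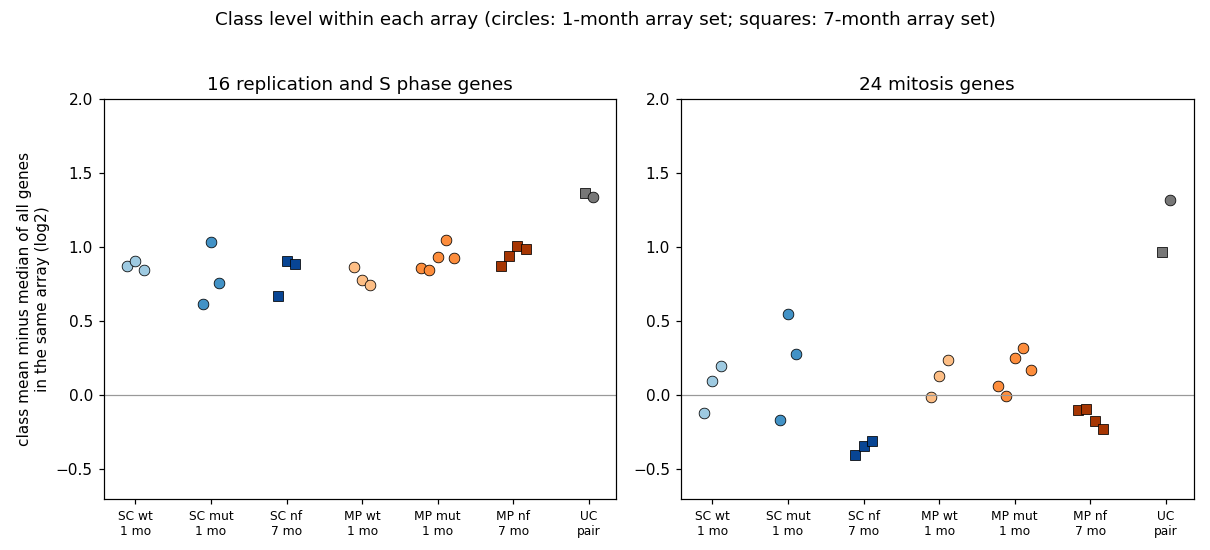
Mean log2 signal of the 16 replication genes (left) and the 24 mitosis genes (right) minus the median of all genes in the same array, for every array (circles, 1-month set; squares, 7-month set). Points are to be read across arrays within a panel: replication genes of sorted cells stay between 0.62 and 1.05, and mitosis genes lie below 0 in all 7-month sorted arrays while the universal control goes from 1.32 to 0.97.

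Among the G1 genes, Ccnd1, which encodes cyclin D1, was at 8.10, 7.68, 7.26 and 5.21 in neurofibroma macrophages and at 6.67, 5.71, 5.77, 6.34 and 6.55 in mutant macrophages. Array s4486 lay below every mutant array and the other 3 lay above them. The difference was 1.22 net of the control (95% interval -0.75 to 3.18, adjusted p = 0.844), 1.28 after ComBat (adjusted p = 0.0235) and 1.70 with centering (adjusted p = 0.00291). Ccnd2 was at 7.12, 6.85, 6.14 and 6.03 in neurofibroma macrophages, overlapping the mutant arrays given above, and differed by 1.09 net of the control (adjusted p = 0.861). In SCs Ccnd1 was at 7.27, 7.20 and 7.21 in neurofibroma and at 7.70, 7.27 and 7.07 in mutant nerve, a difference of 0.25 net of the control. Cdk2, the kinase partner of cyclin E, was at 3.87, 3.74 and 4.10 in neurofibroma SCs and at 4.80, 4.84 and 5.22 in mutant SCs, and the control went from 5.81 to 4.11.

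E2f1 and Foxm1, the factors that drive replication and mitosis genes, had lower signals in all 7-month arrays. E2f1 was at 2.91, 3.17 and 3.17 in neurofibroma SCs and at 4.69, 4.63 and 4.34 in mutant SCs, and at 3.17, 3.17, 3.20 and 3.17 in neurofibroma macrophages. Foxm1 was at 3.11, 3.38 and 3.11 in neurofibroma SCs and at 4.32, 4.98 and 4.56 in mutant SCs, and at 2.97, 2.84, 3.34 and 2.91 in neurofibroma macrophages. The universal control went from 4.83 to 3.08 for E2f1 and from 4.61 to 3.72 for Foxm1, and net of it neither was called in any comparison. Cdkn2b, for which the universal control went from 4.06 to 4.69, was at 6.08, 5.91 and 5.75 in neurofibroma SCs, and the difference from mutant nerve was -0.13 net of the control and 1.36 with centering, where it was called. Cdkn1a differed by 0.49 net of the control and by 1.03 with centering, where it was called as well.

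The last comparison asked whether the change from mutant nerve to neurofibroma differed between SCs and macrophages, and here the array sets cancel. The label batches do not. All mutant macrophage arrays and mutant SC replicate 10 belong to label batch 1. Mutant SC replicates 8 and 9 and all neurofibroma arrays belong to batch 2. No member was called (calls were 1.67% of all genes), and 7 members (14%) had an unadjusted p under 0.05, against 13.7% of all genes. The change was lower in SCs for 22 of 24 mitosis genes, with a median of -0.27, for 9 of 16 replication genes, with a median of -0.01, and for 35 of 50 members, beside 11461 of 22180 genes and a median of -0.01 over all genes. After quantile normalization it was lower for 18 of 24 mitosis genes, with a median of -0.20. The median SC minus macrophage difference of the mitosis genes was 0.20 in mutant nerve, -0.03 in neurofibroma and -0.05 in wild-type nerve, so that neurofibroma lay near wild-type nerve in this measure. Mcm6, a further helicase subunit, had the smallest adjusted p of 0.132 at a difference of -0.78, followed by Pcna at 0.43 (0.167) and Rrm2 at -0.98 (0.175). Leaving out mutant SC replicate 8 brought Top2a past both thresholds. Of the 132 other genes of the pathway, the S phase genes Rfc2 (-1.44, adjusted p = 0.0182) and Tk1 (-1.37, adjusted p = 0.00305) and the mitosis gene Anln (-1.50, adjusted p = 0.00669) had a lower change in SCs than in macrophages, and the p53 target Plk2 (1.47, adjusted p = 0.00679) had a higher one.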

How the data were processed

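Microarray values of 23 arrays were used as the authors deposited them: log2 signals that the authors summarized with the RMA method in Affymetrix Expression Console 1.3.1.187 (mm10 annotation). The methods state that 2 batches were combined with ComBat, whereas the deposited log2 values lie on 2 levels, split here at the middle of the range of array medians. The comparisons between ages net of the universal control, and the further gene lists, were chosen with earlier results of these data known. The members themselves were set by symbol, without use of their expression values.

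Of 41345 transcript clusters 23521 carry 1 gene symbol, 1820 several and 16004 none, and 22180 genes were kept with the cluster of highest mean over the sorted arrays. limma 3.58.1 (R 4.3.3) was fitted to all 23 arrays with 7 groups and the array set as a term (15 residual degrees of freedom), with Benjamini-Hochberg adjustment over all genes, and calls needed both an adjusted p below 0.05 and more than a 2-fold change (1 on the log2 scale). The number of arrays limits the precision. Members named with every array are those called in any of the 10 comparisons and the 2 with the widest range of group means in each role class. Mki67, Top2a, Birc5, Pcna, Ccnd1, Bub1b and Cdkn2a were named after their values were seen. Alternatives were ComBat on the array sets, centering, quantile normalization, the label batch as a term, a filter on low values, the mean of a gene's clusters, trend and robust variances, fits of the compared groups alone, the replicate number as a block and leaving out each array. Class medians under centering and the fit without arrays that carry seminal vesicle transcripts were added after seeing the data. The fit was tested on simulated data. It recovered 46% of 2-fold and 96% of 3-fold changes between mutant and wild-type SCs at 1 month. For SCs against macrophages of wild-type nerve these were 46% and 90%, and for neurofibroma against mutant SCs 10% and 44%. Changes of such size could therefore go uncalled. Motifs were searched with Python in RefSeq windows of GRCm38.p6, and positions are those of RefSeq.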

Additional observations from a re-analysis of the deposited data

Results flagged for a closer look

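Of 100 groups of 4 or 5 arrays checked for a single array far from the rest, 15 had one, and chance gives about 1 in 20. In macrophages of mutant nerve replicate 14 was high for 4 mitosis genes, Cdc20 at 4.76 (others 4.07 to 4.18), Kif23 at 3.97 (3.11 to 3.29), Nusap1 at 4.66 (3.82 to 4.01) and Prc1 at 4.64 (4.22 to 4.31). Replicate 11 was low for Cenpf at 3.17 (3.50 to 3.58). The other 10 lay in neurofibroma macrophages, where arrays often share 1 value and the others then have little or no range. Array s4486 stood apart for Cdk1 at 2.32 (others all 2.84), Bub1b at 2.87 (others all 2.67) and Cenpf at 2.46 (2.52 to 2.54), and array s4448 for Cdc6 at 2.13 (others all 2.47) and Aurka at 2.91 (others all 3.13). Array s4481 stood apart for Cdc45 at 3.21 (2.88 to 2.92), Rrm1 at 3.84 (4.29 to 4.38) and E2f1 at 3.20 (others 3.17), and array s4441 for Mcm6 at 4.996 (4.75 to 4.79) and Bub1 at 1.77 (1.89).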

How the results depend on the processing

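Counts of called members between ages depended on how the array sets were brought together. For neurofibroma SCs against mutant nerve 0 members were called net of the universal control, 5 after ComBat, 9 with centering, 7 after quantile normalization and 1 with the label batch as a term. Against wild-type nerve there was 1, then 6, 5 and 5, and 0 with the filter on low values. For neurofibroma macrophages against mutant nerve there was 1, then 4, 5 and 6, and 0 with the filter or without the arrays that carry seminal vesicle transcripts, and against wild-type nerve 0, then 2, 4 and 4. The value of Cdc25c in macrophages against mutant nerve went from 1.55 to -0.11 after quantile normalization. Over all genes the 4 counts were 51, 69, 50 and 46 net of the control, 1248, 1434, 1099 and 1380 after ComBat, and 1303, 1319, 994 and 1491 with centering. Between SCs and macrophages of mutant nerve 2 members were called, and 4 after quantile normalization. Counts over all genes are not given here for quantile normalization, the label batch term, the filter or the fit without seminal vesicle arrays. The member counts under those settings are therefore not read as a result about the members.

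Leaving out 1 array at a time gave 2 to 5 members for SCs against macrophages in wild-type nerve, 1 to 5 in mutant nerve and 1 to 2 in neurofibroma, and 0 to 1 for the difference in change between the cell types. The remaining counts of called members did not change when an array was left out. The shares of all genes called in these fits are not given here. SC and macrophage arrays of neurofibroma share the numbers s4481 and s4486, but with deviations correlated at 0.05 and 0.11 over 2 numbers they were not taken as pairs. With the number as a replicate block (correlation 0.10) the counts of called members were 0 and 0 between genotypes, 0, 1, 1 and 0 between ages, 4, 2 and 2 between cell types and 0 for the difference in change. The number of arrays, 1 universal control in each set above all, limits the comparisons between ages, and signals near the bottom of the array limit Cdc25c.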
